A study of Mus musculus with 8 samples.

Results

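The 10 genes described here encode contractile proteins of vascular smooth muscle (Acta2, Myh11, Tagln, Cnn1 and Smtn) and receptors or markers of mural cells and pericytes (Pdgfrb, Rgs5, Cspg4, Notch3 and Kcne4). They were taken as a list of named genes and found in the count table by Ensembl identifier without its version. All 10 were among the 39056 genes of the table and among the 14796 genes that passed the filter on low counts. RNA of the heart was sequenced from 4 HVCN1 null mice and 4 WT mice, with 1 library per heart, to compare hearts that lack the voltage-gated proton channel HVCN1 (Hv1) with hearts that carry it. All mice were males of 3 months, the WT mice are given as C57BL/6 background, and the null mice carry a knockout of the Hv1 gene. Neither group received another treatment by the labels. How the null allele was made, and whether null and WT mice were littermates, was not given in the sources used here. Null hearts are numbered 1 to 4 and WT hearts 5 to 8. A heart gave 1 library, so p-values measure the spread between hearts.

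Mural cells wrap the endothelial tube of blood vessels. Smooth muscle cells form the contractile coat of arteries and larger veins, where smooth muscle actin and myosin slide along each other when calcium rises, and pericytes sit on capillaries, where they depend on PDGF-B from the endothelium acting on the receptor PDGFRβ. In arteries, endothelial Notch ligands act on NOTCH3 of the smooth muscle cell, and serum response factor with its partner myocardin drives the contractile genes through a DNA element called the CArG box. In heart muscle these cells are a minority beside cardiomyocytes, so their transcripts in whole-heart RNA are low next to those of the sarcomere. Fewer mural cells and less RNA per mural cell cannot be told apart in such samples.

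Total counts ran from 25851255 to 38874640 per heart. Hvcn1 gave 16 counts over the null hearts and 318 over the WT hearts, a log2 fold change (null over WT) of -4.20 (SE 0.38, edgeR quasi-likelihood adjusted p = 3.63e-04). Cardiomyocyte markers summed to between 53047 and 64956 CPM in every heart. The hearts differed widely in atrial RNA: the summed CPM of 7 atrial markers was 4694 and 3760 in null hearts 2 and 3 and 3342 and 8666 in WT hearts 5 and 7, against 322 and 328 in null hearts 1 and 4 and 126 and 87.0 in WT hearts 6 and 8. By this sum each genotype held 2 atrium-rich and 2 atrium-poor hearts. The atrium-poor hearts were not alike, as those of the null group kept more atrial RNA. Myl7, an atrial marker, was at 17.0 and 33.6 CPM in null hearts 1 and 4. In WT hearts 6 and 8 it was at 0.618 and 0.169 CPM. Lung and airway markers were near 0, at 0.155 to 0.803 CPM in sum.

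Levels are given as CPM, the counts of a gene relative to all counts of its library, after TMM scaling of the library sizes in edgeR, and levels of different genes are set side by side only per kilobase of exon. On that scale Rgs5, a regulator of G protein signalling that marks pericytes, was the highest of the 10 in WT hearts at 138 ± 19.2 CPM per kilobase (SD, n = 4). Smtn and Acta2 came next at 51.9 ± 4.52 and 47.7 ± 8.59 CPM per kilobase, and their WT values overlapped. Pdgfrb and Tagln followed at 19.6 ± 1.26 and 19.2 ± 4.26 CPM per kilobase, again with overlapping values. Notch3 stood at 12.5 ± 0.869, Myh11 at 8.37 ± 0.897 and Cspg4 at 3.68 ± 0.0837 CPM per kilobase, with no overlap between neighbours in this order. Cnn1 and Kcne4 were the lowest, at 1.43 ± 0.444 and 1.03 ± 0.109 CPM per kilobase, and their values overlapped. In null hearts the mean level of Acta2 was 119 ± 46.2 CPM per kilobase, above Smtn at 64.9 ± 6.45 and within the range of Rgs5 at 135 ± 28.1. The means of Tagln and Pdgfrb, at 20.3 ± 6.38 and 18.4 ± 3.33 CPM per kilobase, also stood in the other order there, with overlapping values. With the longest coding transcript as the length, Smtn came to 75.3 CPM per kilobase in WT hearts and so moved further from Acta2 at 51.5. Tagln at 23.9 then stood above Pdgfrb at 19.8 CPM per kilobase, which turns their WT order round. Myh11 came to 9.86 and Cspg4 to 5.41 CPM per kilobase on that length.

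**Figure D1:**
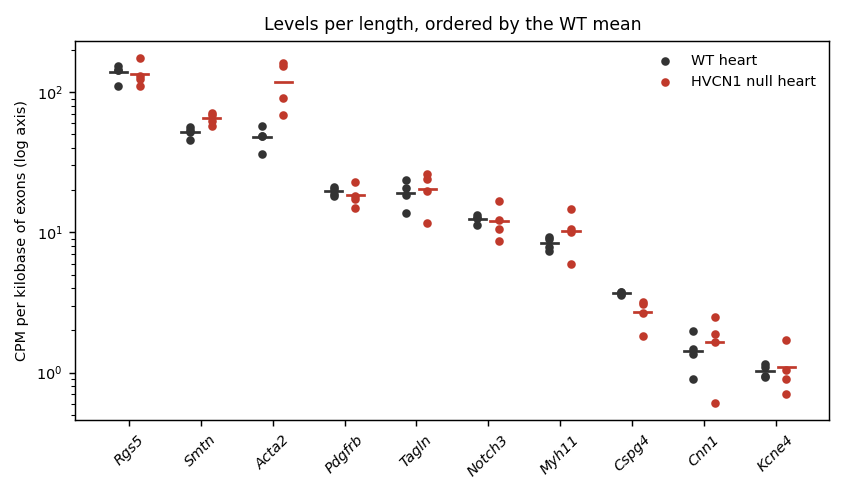
Level of each gene in CPM per kilobase of exons (log axis) in the 4 WT hearts (dark) and the 4 HVCN1 null hearts (red), with a bar at each group mean and the genes ordered by the WT mean. Rgs5 leads at 138 CPM per kilobase in WT hearts, and Acta2 moves from 47.7 in WT to 119 in null hearts.

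Acta2 encodes smooth muscle α-actin, the main thin filament actin of vascular smooth muscle and also a gene that fibroblasts switch on when they become myofibroblasts. It was the only 1 of the 10 genes to pass the test between the genotypes, beside 1.14% of all 14796 genes tested (0.743% called higher in null hearts). Its CPM was 357, 150, 336 and 201 in null hearts 1 to 4, against 108, 107, 125 and 79.5 in WT hearts 5 to 8. Every null heart lay above every WT heart, with null hearts 1 and 3 far above the other 2. The means were 261 ± 101 and 105 ± 18.9 CPM (SD, n = 4 each), from 33451 counts over the null hearts and 14803 over the WT hearts. The log2 fold change was 1.32 (SE 0.26, 95% interval 0.73 to 1.90), or 2.49-fold higher in null hearts, with an edgeR quasi-likelihood adjusted p of 0.0466. The difference in mean CPM gave p = 0.0286 in a two-sided exact permutation test, the smallest p that 70 assignments of 4 and 4 hearts allow.

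The direction of the Acta2 difference was the same in 19 of 19 other fits, with log2 fold changes from 1.13 to 1.51, but the call was lost in 9 of them. The adjusted p was 0.126 without null heart 1, 0.123 without null heart 3, and 0.118, 0.149, 0.0628 and 0.120 without WT hearts 5, 6, 7 and 8. It was 0.0577 with library sizes not scaled, 0.0512 with a filter at a CPM above 1 in at least 4 hearts and 0.0518 by limma's voom. With a score of atrial, endothelial or vessel wall genes as a covariate, the adjusted p was 0.0456, 0.0282 and 0.0206.

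Markers of other cells that can make Acta2 were read beside it. Fibroblast markers summed to between 1967 and 3154 CPM in null hearts and between 2162 and 3572 CPM in WT hearts, and 0 of the 10 fibroblast genes passed the test by edgeR's quasi-likelihood test, by DESeq2 or by voom, with 0 at an unadjusted p under 0.05. Postn, a matrix protein of activated fibroblasts, was at 103, 48.3, 40.4 and 17.4 CPM in null hearts 1 to 4 and 52.0, 46.8, 55.4 and 37.7 CPM in WT hearts 5 to 8. Null heart 1 was thus highest in both Acta2 and Postn, while null heart 3, second in Acta2, was below 3 of the 4 WT hearts in Postn. The part of these cells in the Acta2 difference was not tested.

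The heart also makes other actins, whose coding sequences are close to that of Acta2 (chromosome 19, 34241090 to 34255590, minus strand, GRCm38). The coding sequences of Acta2 and of cardiac α-actin Actc1, the actin of the cardiomyocyte sarcomere, were identical at 82.6% of their bases. The stretch of 60 bases most alike between Acta2 and Actc1 is shown because it is where a short read could most easily be confused between them. It spans coding bases 748 to 807, counted from 1 at the start codon (GENCODE M21), and capitals mark the 4 bases that differ.
Acta2: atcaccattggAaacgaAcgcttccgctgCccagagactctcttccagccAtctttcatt
Actc1: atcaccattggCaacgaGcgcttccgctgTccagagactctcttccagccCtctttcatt
The longest run of identical bases between the coding sequences of Acta2 and Actc1 was 23 bases, shorter than a read of 50 bases. That of skeletal α-actin Acta1 was closer to Acta2, with 85.4% of bases identical and a longest run of 29 bases. Of the 1986 windows of 50 bases in the Acta2 transcript, 7 (0.353%) occurred in another annotated gene. All 7 occurred in Actg1, and none occurred in Actc1.

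Values of the other actins, chosen after the Acta2 values were seen, went different ways. Actc1 was at 6225, 6078, 6400 and 6727 CPM in null hearts and 8449, 10536, 7640 and 9501 CPM in WT hearts, so that all null hearts were below all WT hearts (log2 fold change -0.51, SE 0.12, adjusted p = 0.105). Actg1, cytoplasmic γ-actin, had a log2 fold change of 0.38 (SE 0.12, adjusted p = 0.209), and all null hearts were above all WT hearts. Skeletal α-actin Acta1 (-0.31), cytoplasmic β-actin Actb (0.19) and enteric smooth muscle γ-actin Actg2 (0.15) overlapped between the groups on the same log2 fold change scale. None of these 5 passed the edgeR quasi-likelihood test, though Actc1 was called by DESeq2, with library sizes not scaled and with the vessel wall score as a covariate.

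**Figure D2:**
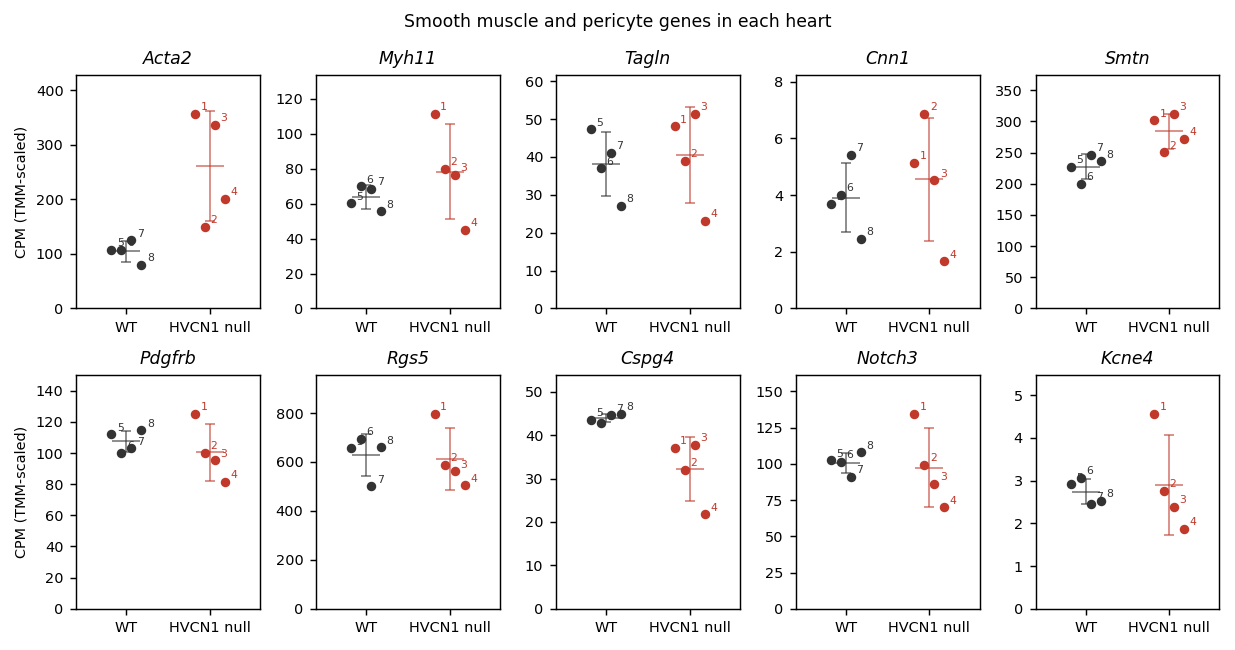
CPM (TMM-scaled, linear axes from 0) of each of the 10 genes in the 4 WT hearts (dark) and the 4 HVCN1 null hearts (red), numbered as in the text, with the group mean and SD. Acta2 and Smtn are higher and Cspg4 is lower in all null hearts than in all WT hearts, and the other 7 genes overlap.

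The remaining contractile genes did not pass the test. Myh11 (chromosome 16, 14194535 to 14291372), smooth muscle myosin heavy chain and the gene most restricted to smooth muscle among the 5, was at 112, 79.8, 76.7 and 45.2 CPM in null hearts 1 to 4 and 60.2, 69.9, 68.6 and 55.7 CPM in WT hearts 5 to 8. The null values enclosed the WT values: hearts 1 to 3 were above all WT hearts and heart 4 was below all of them. The log2 fold change was 0.30 (SE 0.22, edgeR quasi-likelihood adjusted p = 0.742), with a 95% interval of -0.19 to 0.79 that holds both a decrease and a clear increase.

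Tagln encodes transgelin (SM22α), an actin-binding protein of smooth muscle. Its CPM was 48.1, 39.0, 51.5 and 23.1 in null hearts and 47.3, 37.0, 41.0 and 27.1 in WT hearts. Null heart 4 and WT heart 8 were the lowest of their groups, and the groups overlapped throughout (log2 fold change 0.08, SE 0.24, adjusted p = 0.961). Cnn1, calponin, which binds actin and slows the smooth muscle myosin ATPase, was at 5.13, 6.88, 4.52 and 1.67 CPM in null hearts and 3.69, 4.02, 5.42 and 2.46 CPM in WT hearts. Here too null heart 4 and WT heart 8 were lowest (log2 fold change 0.22, SE 0.37, adjusted p = 0.921). Cnn1 was measured by 59 to 257 counts per heart, the fewest of the contractile genes.

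Smtn encodes smoothelin, a protein of the smooth muscle cytoskeleton. It was at 302, 251, 313 and 272 CPM in null hearts and 227, 200, 246 and 236 CPM in WT hearts, so every null heart was above every WT heart. The means were 284 ± 28.2 and 227 ± 19.8 CPM (SD, n = 4 each). The log2 fold change was 0.32 (SE 0.11, edgeR quasi-likelihood adjusted p = 0.260). The two-sided exact permutation test gave p = 0.0286, the smallest it can give. The difference was 1.25-fold and was called by DESeq2 alone (adjusted p = 0.0475).

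Pdgfrb, the receptor for PDGF-B on pericytes and smooth muscle cells, was at 125, 100.2, 95.4 and 81.4 CPM in null hearts 1 to 4 and 112, 100.2, 103 and 115 CPM in WT hearts 5 to 8. The WT hearts lay within the null range (log2 fold change -0.10, SE 0.13, adjusted p = 0.890). Rgs5 was at 797, 588, 562 and 504 CPM in null hearts and 657, 696, 500 and 659 CPM in WT hearts. Its groups overlapped, with null heart 1 highest and WT heart 7 lowest (log2 fold change -0.04, SE 0.16, adjusted p = 0.979).

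Notch3, the Notch receptor of arterial smooth muscle and pericytes, was at 135, 99.2, 86.0 and 70.1 CPM in null hearts and 102, 102, 91.1 and 108 CPM in WT hearts. Again the WT range lay inside the null range (log2 fold change -0.05, SE 0.17, adjusted p = 0.971). Kcne4, a small subunit that inhibits voltage-gated potassium channels, was at 4.56, 2.76, 2.39 and 1.87 CPM in null hearts and 2.91, 3.06, 2.46 and 2.53 CPM in WT hearts. It rested on 63 to 152 counts per heart, and its log2 fold change was 0.08 (SE 0.26, adjusted p = 0.967).

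Cspg4 encodes the proteoglycan NG2 of the pericyte surface and was the only 1 of the 5 pericyte genes with no overlap between the genotypes. Its CPM was 37.0, 32.0, 37.8 and 21.7 in null hearts and 43.5, 42.7, 44.6 and 44.9 in WT hearts. All null hearts were below all WT hearts, and the WT values were tightly grouped. The means were 32.1 ± 7.42 and 43.9 ± 0.998 CPM (SD, n = 4 each). The log2 fold change was -0.45 (SE 0.15, edgeR quasi-likelihood adjusted p = 0.260), and the two-sided exact permutation test gave p = 0.0286. The difference between null and WT is 0.731-fold and was not called in any of 19 other fits. Without null heart 4, the lowest, the log2 fold change was -0.30 (SE 0.09, adjusted p = 0.193).

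Over the 10 genes, 1 passed the test and 3 had an unadjusted edgeR p under 0.05 (Acta2, Smtn and Cspg4), where 11% of all tested genes did. Groups did not overlap for the same 3 genes, where 7.06% of all tested genes did not overlap (3.6% with null hearts higher and 3.45% with null hearts lower). The median log2 fold change was 0.08, beside -0.01 over all genes tested. It was 0.30 over the 5 contractile genes, of which 5 of 5 were positive, and -0.05 over the 5 pericyte genes, of which 4 were negative (3 with library sizes not scaled). These counts of signs also moved in other fits. Tagln was negative without null heart 1, null heart 3 or WT heart 8, and Cnn1 without null heart 2. Rgs5 and Notch3 were positive without null heart 4 and with the endothelial score as a covariate, among other fits.

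**Figure D3:**
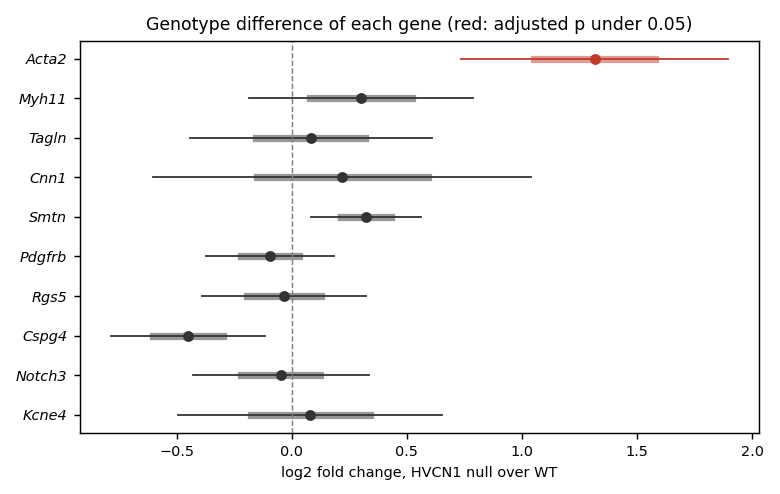
Log2 fold change of each gene, HVCN1 null over WT, from edgeR's quasi-likelihood fit, with thick bars for 1 SE and thin lines for the 95% interval. The interval excludes 0 for Acta2 (1.32, red, adjusted p = 0.0466), Smtn (0.32) and Cspg4 (-0.45), and the last 2 did not pass the test after adjustment.

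Because a ratio of 2 genes within a heart does not depend on library scaling, Acta2 was set against each of the other 9 genes, a comparison added after the data were seen. The ratio of Acta2 to Myh11 was 3.20, 1.88, 4.38 and 4.45 in null hearts and 1.79, 1.53, 1.83 and 1.43 in WT hearts. Every null ratio was above every WT ratio, though that of null heart 2 was above WT heart 7 by little. The same held against 8 of the 9 genes, the exception being Cnn1, where null heart 2 had a ratio of 21.8 and the WT hearts 23.1 to 32.3. Over all 14739 genes with a count in every heart, the ratio of Acta2 separated the groups in 72%, so the 8 of 9 is near what any gene gives. In null heart 4, where Myh11, Tagln and Cnn1 were the lowest of all 8 hearts, Acta2 at 201 CPM was still above all WT hearts. By contrast, the ratio of Notch3 to Pdgfrb lay between 0.860 and 1.07 over all 8 hearts, and the ratio of Rgs5 to Pdgfrb between 4.85 and 6.95. The highest of the 8 ratios was thus 1.25-fold the lowest for Notch3 and 1.43-fold for Rgs5, beside 3.12-fold for Acta2 to Myh11. For the other ratios computed without Acta2 it was 1.62-fold for Cspg4 to Pdgfrb, 1.82-fold for Tagln to Myh11 and 2.23-fold for Smtn to Myh11.

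**Figure D4:**
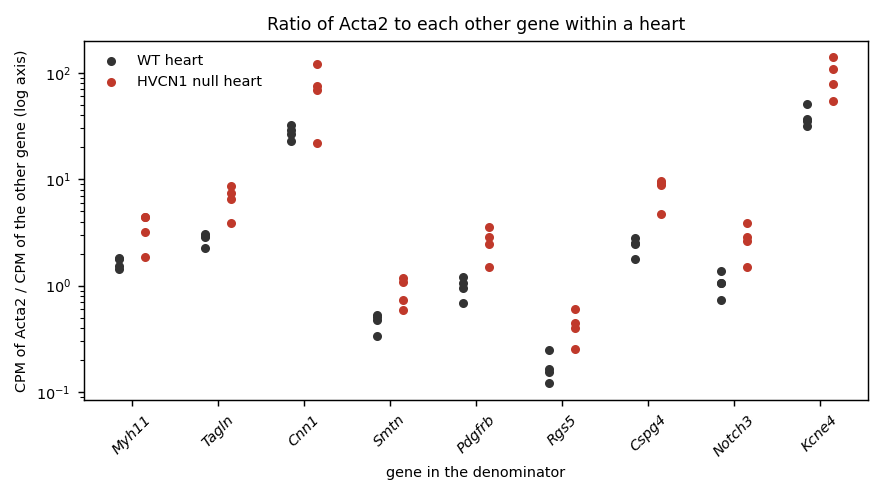
CPM of Acta2 divided by the CPM of each other gene in the same heart (log axis), for 4 WT hearts (dark) and 4 HVCN1 null hearts (red). The null ratios are above the WT ratios for every gene except Cnn1, where 1 null heart falls to 21.8.

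In these 10 genes the null hearts were more spread than the WT hearts, which was described and not tested. The genes were read in the same hearts, so they are not separate observations. The coefficient of variation within a group was larger in null hearts for 10 of the 10 genes, where it was larger for 52.9% of all genes tested. Its median over the 10 genes was 29.8% in null and 10.7% in WT hearts, beside 13.9% and 13.1% over all genes. Heart 1 was the highest of all 8 for 6 genes (Acta2, Myh11, Pdgfrb, Rgs5, Notch3 and Kcne4), and heart 4 was the lowest of all 8 for 7 genes (Myh11, Tagln, Cnn1, Pdgfrb, Cspg4, Notch3 and Kcne4). The median deviation of the 10 genes from their mean over 8 hearts was 0.38 on the log2 scale in heart 1 and -0.51 in heart 4, while that of all tested genes was 0.0038 and -0.0087. Without heart 1 the spread was wider in null hearts for 9 of the 10 genes, and without heart 4 for 8.

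Marker lists of other cell types also differed between null hearts 1 and 4, in different ways. Endothelial markers summed to 1620 CPM in null heart 1 and 1316 CPM in null heart 4, the highest and the lowest of the null hearts, and WT hearts lay between 1444 and 1666 CPM. Fibroblast markers were likewise highest among null hearts in heart 1, at 3154 CPM, and lowest in heart 4, at 1967 CPM. Cardiomyocyte markers ran the other way, at 53260 CPM in heart 1 and 64110 CPM in heart 4. So did erythroid markers, at 1298 CPM in heart 1 and 8391 CPM in heart 4. Macrophage markers were at 211 CPM in heart 1 and 184 CPM in heart 4, but highest among null hearts in heart 3, at 233 CPM. Adipocyte markers were lowest among null hearts in heart 1, at 2.46 CPM. Their part in the spread of the smooth muscle and pericyte genes was not tested.

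The relation to atrial tissue was read with a score for each heart, the mean log2 CPM of the 6 atrial genes tested (Nppa, Myl7, Myl4, Sln, Mybphl and Dkk3), centred on 0. It was -1.54, 3.08, 2.81 and -0.99 in null hearts 1 to 4, against 2.72, -4.64, 4.03 and -5.48 in WT hearts 5 to 8, and it did not separate the genotypes (p = 0.571 by exact permutation, two-sided). With genotype in the model, 0 of the 10 genes had a slope on the atrial score that passed edgeR's quasi-likelihood test, while 1.78% of all genes tested did (1.68% with a positive slope). The count was 0 also at an unadjusted p under 0.05 (12.6% of all genes) and by the likelihood ratio test, DESeq2 and voom after adjustment. A slope is the change in log2 CPM per unit of score. The largest was that of Cnn1 at 0.08 (SE 0.05, adjusted p = 0.538), followed by Tagln at 0.06 (SE 0.03, adjusted p = 0.521), and the most negative was that of Rgs5 at -0.03 (SE 0.02, adjusted p = 0.577).

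Values of 3 of the genes are set side by side for atrium-rich and atrium-poor hearts. These are the only members whose WT values separated fully by this split. The WT values of every other member overlapped, among them Cnn1, at 3.69 and 5.42 CPM in the atrium-rich against 4.02 and 2.46 CPM in the atrium-poor hearts. The separation was seen in few hearts and was not tested. Acta2 was at 150 and 336 CPM in the atrium-rich null hearts 2 and 3 and at 357 and 201 CPM in the atrium-poor null hearts 1 and 4. In WT hearts it was at 108 and 125 CPM in the atrium-rich hearts 5 and 7 and at 107 and 79.5 CPM in the atrium-poor hearts 6 and 8. Its slope was 0.02 (SE 0.04, adjusted p = 0.889). Tagln in WT hearts was 47.3 and 41.0 CPM in the atrium-rich against 37.0 and 27.1 CPM in the atrium-poor hearts, and Rgs5 was 657 and 500 against 696 and 659 CPM. Among WT hearts both atrium-rich values were above both atrium-poor values for Acta2 and for Tagln, and both were below in Rgs5. The margin was small in Acta2 and in Rgs5. In null hearts Tagln was 39.0 and 51.5 CPM in the atrium-rich against 48.1 and 23.1 CPM in the atrium-poor hearts. Rgs5 was 588 and 562 against 797 and 504 CPM there. For all 3 genes the atrium-rich and atrium-poor values of null hearts overlapped. A slope that did not pass does not show that a gene was unrelated to the atrium. The 8 hearts fall into clusters on this score, so no correlation over all of them is given. The slopes were fitted over the same hearts and carry the same limit.

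**Figure D5:**
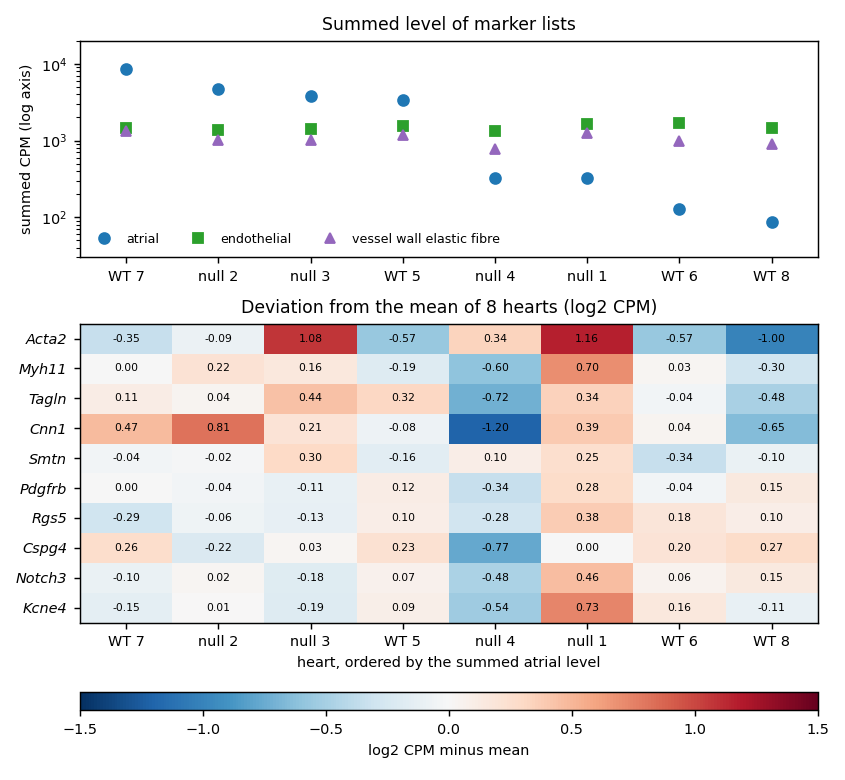
Above, the summed CPM (log axis) of the atrial, endothelial and vessel wall elastic fibre marker lists in each heart, with hearts ordered by the atrial sum. Below, the deviation of each gene from its mean over the 8 hearts in log2 CPM, where null heart 1 is mostly high and null heart 4 mostly low. The atrial sums of these hearts are 322 and 328 CPM.

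Vessel tissue was read in the same way with 2 scores that hold none of the 10 genes. Between the genotypes, 0 of the 10 endothelial and 0 of the 10 vessel wall genes passed edgeR's quasi-likelihood test, the likelihood ratio test, DESeq2 or voom, with 1 of each at an unadjusted edgeR quasi-likelihood p under 0.05. The endothelial score, from 10 genes of the endothelial lining such as Pecam1 and Cdh5, was 0.12, -0.10, -0.02 and -0.15 in null hearts and 0.12, 0.13, -0.05 and -0.05 in WT hearts, a narrow range. All 10 slopes were positive, and 0 of 10 passed edgeR's quasi-likelihood test, as did 0% of all genes tested. At an unadjusted p under 0.05 there were 5 of the 10 genes, where 3.7% of all genes had such a slope, and the likelihood ratio test, DESeq2 and voom called none of the 10. These 5 were Kcne4 with a slope of 3.0 (SE 0.95), Tagln with 2.54 (SE 1.03), Myh11 with 2.37 (SE 0.90), Rgs5 with 1.78 (SE 0.63) and Notch3 with 1.74 (SE 0.72). Acta2 had a slope of 2.46 (SE 1.15) and was not among them. The adjusted p was 0.9998 for all 10 genes.

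The vessel wall score came from 10 elastic fibre and matrix genes such as Eln, the elastin of arteries, which fibroblasts also express. It was 0.17, -0.04, -0.06 and -0.53 in null hearts and 0.31, -0.04, 0.48 and -0.30 in WT hearts, lowest in null heart 4 and highest in WT heart 7. WT heart 7 was also highest on the atrial score. Slopes on the vessel wall score were fitted without the atrial score, so they are not separate from it. All 10 slopes were again positive, and 0 of 10 passed edgeR's quasi-likelihood test (0.196% of all genes did, 0.182% with a positive slope). The 3 genes with an unadjusted p under 0.05 (15.4% of all genes) were all contractile: Cnn1 at 1.71 (SE 0.50, adjusted p = 0.179), Tagln at 1.17 (SE 0.27, adjusted p = 0.134) and Myh11 at 0.89 (SE 0.31, adjusted p = 0.227). Acta2 had a slope of 0.85 (SE 0.40, adjusted p = 0.348), and the smallest slopes were those of Smtn at 0.15 and Rgs5 at 0.12. The likelihood ratio test called Tagln, DESeq2 called Tagln and Cnn1, and voom called none. Both scores and the 10 genes were read from the same 8 libraries.

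Lists of related genes put these values in context. Of 20 other smooth muscle genes, several of them also expressed by cardiomyocytes, 12 had a positive log2 fold change and 0 passed edgeR's quasi-likelihood test, with 1 at an unadjusted p under 0.05. The median was 0.05. Nrip2 (0.78, adjusted p = 0.558) and Myl9, the smooth muscle myosin light chain (0.42, adjusted p = 0.780), had the highest log2 fold changes, and Tpm2, a tropomyosin (-0.30, adjusted p = 0.898), and Synpo2, an actin-binding protein of the Z disc (-0.48, adjusted p = 0.127), the lowest. DESeq2 and the likelihood ratio test each called 1, Synpo2, and voom called 0.

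Of 23 other pericyte genes, 11 were positive, the median was -0.02 and 0 passed the edgeR quasi-likelihood test, with 1 at an unadjusted p under 0.05. That 1 was Ednra, the endothelin receptor of smooth muscle, at 46.3, 47.9, 44.5 and 38.3 CPM in null hearts and 28.1, 30.4, 35.3 and 34.9 CPM in WT hearts. All null hearts were above all WT hearts (log2 fold change 0.46, SE 0.10, adjusted p = 0.0791). DESeq2 and the likelihood ratio test called it and voom did not. P2ry14 (0.35) also had no overlap, and Foxs1 (-0.34) had the lowest log2 fold change of this list.

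Among 12 genes that regulate contractile genes with serum response factor and myocardin, 7 were positive, the median was 0.04 and 1 passed the test. This was Klf4, a transcription factor that represses contractile genes in smooth muscle and is also made by endothelium. Its CPM was 104, 81.8, 72.7 and 59.2 in null hearts and 51.4, 47.5, 45.8 and 42.3 in WT hearts. All null hearts were above all WT hearts, a log2 fold change of 0.77 (SE 0.15, edgeR quasi-likelihood adjusted p = 0.0489). The call was lost in 11 of 19 other fits, added after the data were seen, at adjusted p values up to 0.152, among them those without null hearts 1, 2 or 3 (0.0761, 0.0989 and 0.0949), without WT hearts 5 to 8 (0.0852, 0.152, 0.0879 and 0.132) and with the atrial score as a covariate (0.0514). Srf, serum response factor itself, was also higher in all null hearts than in all WT hearts. Its log2 fold change was 0.16 (SE 0.08, edgeR quasi-likelihood adjusted p = 0.515). Klf5 (0.41), Mrtfb (-0.18) and Fhl2 (-0.37) overlapped between the groups.

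In the Notch pathway 15 of 18 genes were positive (median 0.15) and 0 passed edgeR's quasi-likelihood test, with 6 at an unadjusted p under 0.05, 5 of them higher. Over all genes tested, 7002 of 14796 were positive and 11% had such a p, which is the background for the other lists too. Nrarp, a feedback target of Notch, and Dll4, a Notch ligand of arterial endothelium, both had a log2 fold change of 0.49 (SE 0.13 and 0.15, adjusted p = 0.146 and 0.214). Rbpj, the DNA-binding partner of the cleaved receptor, had the lowest at -0.42 (SE 0.18, adjusted p = 0.425), followed by Rfng at -0.07. DESeq2 and the likelihood ratio test called Nrarp and voom called 0.

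In the PDGF pathway 5 of 10 genes were positive (median -0.03) and 0 passed, with 3 at an unadjusted edgeR p under 0.05. Pdgfb, the endothelial ligand of PDGFRβ, had a log2 fold change of 0.35 (SE 0.14, adjusted p = 0.363) and the signalling enzyme Plcg1 0.26 (SE 0.07, adjusted p = 0.183), while Pdgfra (-0.30) and Pdgfc (-0.52) were lowest. DESeq2 called Plcg1 alone and voom called 0. Among relatives and channel partners of Kcne4, 7 of 9 were tested and 0 passed, with 3 at an unadjusted edgeR p under 0.05. Kcna5, a voltage-gated potassium channel of arterial smooth muscle and of cardiomyocytes, was at 40.4, 35.9, 43.9 and 31.1 CPM in null hearts and 27.3, 27.1, 19.7 and 21.6 CPM in WT hearts. The groups did not overlap (log2 fold change 0.66, SE 0.14, adjusted p = 0.0533). DESeq2 and the likelihood ratio test called Kcna5, and voom called 0. Kcne3, at only 0.155 to 0.562 CPM per heart, had a log2 fold change of 0.94 and did not pass.

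The CArG box, named for its letters and read here with an A or T at each of 6 central positions between CC and GG, was searched on both strands of the RefSeq promoters (250 bases before to 50 after the start, GRCm38.p6). The table held 7 of the 10 genes: Acta2, Cnn1, Smtn, Rgs5, Cspg4, Notch3 and Kcne4. An exact match lay in 0 of these 7 and in 1.63% of all 32851 promoters, and a match with at most 1 base different in Acta2 and Cspg4 and in 21.1% of all promoters. The Acta2 windows are shown because Acta2 was the gene that differed between the genotypes. Capitals mark the 10 bases of the match, and the windows lie on the minus strand.
Acta2, chr19:34255438-34255467: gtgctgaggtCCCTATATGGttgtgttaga
Acta2, chr19:34255388-34255417: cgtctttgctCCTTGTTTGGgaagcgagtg
The matches begin 84 and 34 bases before the RefSeq start of the gene. A match of letters is a description and not a site of binding.

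Reads of some of these genes share annotated bases with genes on the opposite strand, and the strand setting of the counting was not given in the sources used here. Of the exon bases of Tagln, 62.4% overlap an antisense transcript, Gm48529, not analysed here, and 5.43% overlap Pcsk7. For Smtn 16.3% overlap Gm11946, which had 9 to 40 counts per heart against at least 6472 for Smtn. For Notch3 6.03% overlap Gm17276, with 29 to 54 counts per heart against at least 2264. The exons of the other 7 genes overlapped no exon of another annotated gene.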

How the data were processed

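RNA of whole hearts of 4 HVCN1 null and 4 WT mice was measured by poly-A selected RNA sequencing. The deposited values are counts per gene and heart that the authors made by alignment with STAR and counting with featureCounts, without normalization. The submitters' processing notes name the mouse build GRCm38 (mm10), while the text of the study's methods names a human one. The identifiers are mouse, and 38872 genes (99.5%) matched GENCODE M21, from which symbols and positions were taken. Versions of STAR and featureCounts, the annotation release and the strand setting were not given in the sources used here. Mitochondrial genes took 23.7% to 30.2% of the counts.

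Counts were TMM-scaled, filtered with filterByExpr and tested with edgeR 4.0.16 in R 4.3.3 (quasi-likelihood test, null against WT, Benjamini-Hochberg adjusted p under 0.05 over 14796 genes). Log2 CPM used a prior count of 2. Slopes on tissue scores were fitted with genotype as a term. For a single gene, the difference between group means of CPM was given an exact permutation p (two-sided, 70 assignments). Sequences came from GENCODE M21 transcripts and RefSeq promoters (GRCm38.p6), read with Python 3.11.15, and figures were drawn with matplotlib 3.10.9. The fits were first tested on simulated data.

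The members and lists were chosen with earlier results of these data known. The genes named are the 10 members, Hvcn1, in each list those called and those with the 2 highest and 2 lowest log2 fold changes, and the 5 genes most alike to Myh11 and to Rgs5. A few genes that this rule names are not reported here, though the list counts include them. Other named genes were chosen after their values were seen: the actins, Srf, and the list genes called by another tool. Marker lists of ventricular, arterial endothelial, adipocyte, epicardial, macrophage and erythroid cells were also counted. Alternatives were RLE scaling or none, no filter on low counts, a filter at a CPM over 1 (4 hearts or more), the likelihood ratio test, DESeq2 1.42.0, voom of limma 3.58.1, no mitochondrial genes, covariates, other forms of the scores, a prior count of 0.5, and each heart left out in turn. The labels give no batch.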

Additional observations from a re-analysis of the deposited data

How the results depend on the processing

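Of the 10 smooth muscle and pericyte genes, 1 was called between the genotypes, as against 0 with library sizes not scaled, 0 with the CPM filter, 0 by voom and 2 by DESeq2, and 0 to 1 with 1 heart left out. The share of all genes called moved too, from 1.14% to 1.01%, 1.01%, 0.994% and 3.15% in these 4 fits. Over the related lists 1 gene was called, against 2 with RLE scaling, 2 with no filter, 0 with the CPM filter, 5 by the likelihood ratio test, 7 by DESeq2, 0 by voom, 2 without mitochondrial genes, 0, 2 and 4 with the atrial, endothelial and vessel wall score as a covariate, and 0 to 3 with 1 heart left out. With library sizes not scaled it was also 1, but Actc1 in place of Klf4. Of all genes, 1.18% were called with RLE scaling, 0.927% with no filter and 2.54% by the likelihood ratio test. The share was 1.14% without mitochondrial genes and 1.43%, 0.906% and 1.48% with the scores in that order. With 1 heart left out it ran from 0.471% to 1.02%. On the vessel wall score 0 of the 10 were called, against 1 by the likelihood ratio test and 2 by DESeq2. The shares of all genes that these 2 tools called on that score are not given here. The counts on the atrial and endothelial scores stayed at 0 in 19 of 19 alternatives each.

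Signs changed only for values that passed no test. Between the genotypes, the log2 fold change of Rgs5 was 0.012 with library sizes not scaled, 0.024 with the atrial and 0.083 with the endothelial score as a covariate, and its difference in mean CPM was 5.23 without scaling. That of Notch3 was 0.049 with the endothelial and 0.011 with the vessel wall score. With 1 heart left out, the log2 fold change ran from -0.055 to 0.27 for Tagln, -0.056 to 0.50 for Cnn1, -0.19 to 0.047 for Rgs5, -0.24 to 0.081 for Notch3 and -0.23 to 0.24 for Kcne4.

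Slopes on the atrial score were 0.010 for Pdgfrb without scaling, -0.0071 for Cspg4 without a genotype term, and -0.097, -0.014 and -0.017 for Acta2, Myh11 and Smtn without the 2 hearts farthest from the median (WT hearts 6 and 8). With 1 heart left out they ran from -0.024 to 0.042 for Acta2, -0.015 to 0.031 for Myh11, -0.0046 to 0.015 for Smtn, -0.018 to 0.0056 for Pdgfrb, -0.0029 to 0.016 for Cspg4 and -0.049 to 0.0065 for Kcne4. The slope of Smtn on the endothelial score was -0.038 with the log2 of the summed CPM as the score and -0.42 without a genotype term. With 1 heart left out it ran from -0.36 to 0.42, and that of Cnn1 from -0.87 to 2.86. Slopes on the vessel wall score were -0.054 for Acta2 and -0.070 for Smtn without a genotype term and -0.0063 for Cspg4 without WT heart 7 and null heart 4. With 1 heart left out they ran from -0.20 to 0.47 for Rgs5 and from -0.016 to 0.73 for Notch3. The causes were not tested.

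No paired analysis was possible because each heart has a number of its own (1 to 8). With 1 heart left out the exact permutation test of 3 against 4 cannot go below 0.0571. Cnn1 and Kcne4 rest on the fewest counts, 59 to 257 per heart. The SE of Kcne4 (0.26) was close to that of Tagln (0.24), which had at least 804 counts per heart. Dixon's test was run on 20 groups of 4 hearts, 2 for each of the 10 genes, and no heart stood apart by it.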

Other observations

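The genes whose log2 CPM over the 8 hearts was most like that of Myh11 were Pde1a (Pearson r = 0.989), Irf9 (0.975), Lmod1 (0.975), Vil1 (0.969) and Adarb1 (0.966). Lmod1, which nucleates actin filaments in smooth muscle, is in the list of other smooth muscle genes, and Pde1a encodes a phosphodiesterase that breaks down cyclic nucleotides. For Rgs5 they were Ebf3 (0.951), Adamts5 (0.948), Dbndd2 (0.936), Btbd3 (0.931) and Arhgef28 (0.928). These are the highest of 14796 values over 8 hearts that share library and scaling, and are given as a description.

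Other cell types also varied among the hearts. Adipocyte markers summed to 28.0 CPM in null heart 2 and 68.0 CPM in WT heart 7, the hearts with the most atrial RNA, against 0.402 to 11.6 CPM in the other 6. Epicardial markers were likewise highest in these 2 hearts, at 46.2 and 56.4 CPM against 6.25 to 20.6 CPM. All 8 macrophage markers had a negative log2 fold change (median -0.30), and 0 of 8 passed edgeR's quasi-likelihood test, DESeq2 or voom, with 2 at an unadjusted edgeR p under 0.05. All 6 erythroid markers were negative (median -0.99), with sums from 1292 to 8391 CPM in null hearts and 3018 to 15228 CPM in WT hearts, and 0 passed by any of these 3 tools, with 2 at an unadjusted edgeR p under 0.05. Of the tested adipocyte (4), epicardial (6), atrial (6), ventricular (5) and arterial endothelial (8) markers 0 passed by any of the 3 tools, with 2 at an unadjusted edgeR p under 0.05, both arterial (Dll4 and Hey1).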
